A study of Mus musculus with 6 samples.

Results

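The genes described here encode the constant regions of the heavy chains of immunoglobulin M (Ighm), immunoglobulin A (Igha) and immunoglobulin D (Ighd), and the J chain (Jchain). They were taken as the probe sets whose single gene symbol in the platform's probe annotation is one of these 4 genes. That gave 15 of 45037 probe sets, for 3 of the 18193 genes with such a probe set. Of these, 11 were for Ighm, 3 for Igha, 1 for Jchain and 0 for Ighd, so Ighd was not analysed here. In the gene table of the GRCm38.p6 assembly, Ighm, Ighd and Igha are constant region segments on chromosome 12 and Jchain lies on chromosome 5. A further 4 probe sets that list a member among several symbols were left out.

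Total RNA came from samples labelled choroid plexus epithelium, the secretory lining of the brain ventricles, with the added words whole brain. The labels used here give neither age nor sex. The 3 wild type (WT) and 3 RAG-/- samples were all of the B10.PL strain, and each was measured on 1 single-colour oligonucleotide array. The labels do not say whether Rag1 or Rag2 was disrupted, nor how many animals went into a preparation. The p-values therefore set group differences only against the scatter of these samples, part of which may be technical. For 1 pair of samples the descriptions say that they had been reversed and give the opposite genotype to the titles.

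Each array is called below by the genotype in its description. The titles exchange only replicate 1 of each genotype: WT replicate 1 is titled RAG, RAG-/- replicate 1 is titled B10 (wild type), and the other 4 arrays carry the same genotype in both labels. The replicate number is also the number of the pair, since 1 sample of each genotype shares a code in the titles. Rag1 and Rag2 were dim, at the 27.1 and 26.2 percentile and below the filter on dim probe sets described further down. Rag1 was not lower in the RAG-/- arrays under either reading, with a mean difference of 0.93 log2 units by description and 2.22 by title, where its groups did not overlap (6.59 ± 0.31 in RAG-/-, 4.37 ± 0.22 in WT, SD, n = 3), and Rag2 differed by 0.05 and -0.68 (limma adjusted p = 1 in each case). All genotypes are therefore those of the libraries as labelled.

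Antibodies are made by the B lineage. A B cell assembles a heavy chain variable region by cutting and joining DNA segments with the RAG1 and RAG2 proteins, and the joined region is transcribed with a constant region, first that of Ighm and Ighd, and after class switching another such as Igha. Plasma cells, the last stage, secrete the protein, and the J chain links the units of polymeric IgM and IgA, which the polymeric immunoglobulin receptor (Pigr) carries across epithelia. Mice without either RAG protein lack mature B and T cells, so these transcripts were taken here as a check of B lineage content. Whether each probe set reads B lineage RNA in these samples was not tested. A probe set for a constant region reads any RNA that holds it, whether the variable region was joined or not.

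Most of the 15 probe sets were dim. Values are log2(intensity + 16) after quantile normalization, a scale that understates changes at low intensity. By mean over the 6 arrays, 3 of 15 lay above the median of all probe sets, all of them for Ighm, and 7 of 15 lay above the filter on dim probe sets, which left out the lowest 40% (means up to 6.06). The members that passed were 5 of 11 Ighm probe sets, 1 of 3 for Igha and that for Jchain. The last to pass was Ighm 1425385_a_at, with a mean of 6.13, and the next below was Ighm 1452535_at, at 5.75. The other 8 were tested in the fit with no filter. In bulk RNA, fewer cells of a type and less RNA per cell cannot be told apart.

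**Figure D1:**
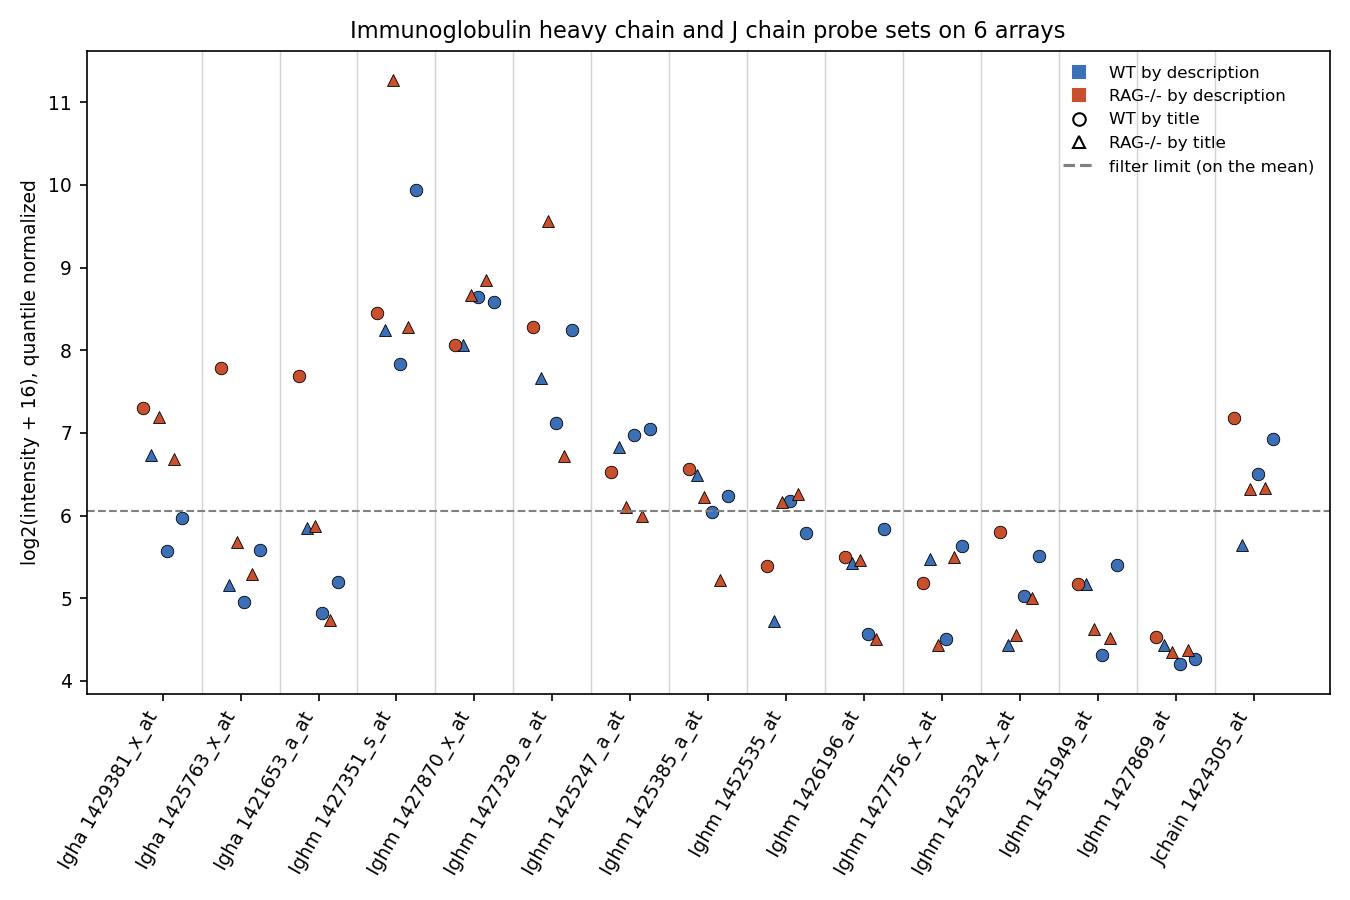
Log2(intensity + 16) after quantile normalization (vertical axis) of the 15 probe sets (horizontal axis) on 6 arrays. Colour gives the genotype in the description and shape that in the title, and the dashed line at 6.06 is the limit on the mean below which probe sets were filtered out. RAG-/- replicate 1 stands above the other arrays at 2 Igha probe sets, and RAG-/- replicate 2 at Ighm 1427351_s_at and 1427329_a_at.

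No member separated the genotypes past the threshold under either reading of the labels. With limma, 0 of 15 passed an adjusted p of 0.05 by description and 0 of 15 by title. Of these, 7 were tested among the 27022 probe sets past the filter, of which 0.0% passed under each reading. With the pair as a block 0.0% of the 27022 passed by description and 0.0037% by title. The other 8 were tested in the fit of all 45037 probe sets with no filter, of which 0.0% passed under each reading. An unadjusted p under 0.05 was reached in the filtered fit by 2 of 7 members by description, where 0.711% of all probe sets reached it, and by 0 of 7 by title, where 1.23% did. In the fit with no filter 0 of 15 reached it by description (2.24% of all), and both former members missed it. Igha 1429381_x_at had a limma unadjusted p of 0.0553 there and Ighm 1425247_a_at one of 0.075 (adjusted p = 1 for both). By title 1 of 15 did there (2.56% of all). In mean, 10 of 15 were higher and 5 lower in RAG-/- by description (49.3% and 50.7% of all probe sets), and 6 were higher and 9 lower by title (47.7% and 52.3% of all). The median difference over the 15 was 0.12 by description and -0.17 by title. Probe sets of 1 gene share their target, so these counts are a description.

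Igha was highest in an array whose description says RAG-/- and whose title says wild type. At 1421653_a_at the log2 values were 7.69, 5.87 and 4.74 in RAG-/- replicates 1, 2 and 3 and 5.85, 4.82 and 5.20 in the WT replicates. RAG-/- replicate 1 stood alone: its deposited intensity was 183, and the other 5 arrays lay between 10.3 and 48.7. At 1425763_x_at the values were 7.78, 5.68 and 5.29 in RAG-/- and 5.16, 4.95 and 5.58 in WT, again with RAG-/- replicate 1 alone above the rest, at an intensity of 197 against 14.7 to 40.7. Both probe sets ranged widely over the arrays, by 2.95 and 2.83 log2 units, where the median range of all probe sets was 1.25.

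The direction of Igha at these probe sets therefore followed the reading of pair 1. By description 1421653_a_at averaged 6.10 ± 1.49 in RAG-/- and 5.29 ± 0.52 in WT (SD, n = 3), a difference of 0.81 (SE 0.70; limma adjusted p = 1, two-sided exact permutation p = 0.6, which cannot go below 0.1 with 3 arrays a group). By title it averaged 5.49 ± 0.65 in RAG-/- and 5.90 ± 1.56 in WT, a difference of -0.41 (SE 0.74; limma adjusted p = 1, exact permutation p = 0.8). The groups overlapped under both readings. For 1425763_x_at the differences were 1.02 (SE 0.63) and -0.73 (SE 0.68), with limma adjusted p = 1 for both. Without RAG-/- replicate 1 the differences by description were 0.02 and 0.26 for these probe sets, and by title 0.48 and 0.11. Within pairs 2 and 3, where title and description give the same genotype, RAG-/- minus WT was 1.06 and -0.46 at 1421653_a_at and 0.73 and -0.30 at 1425763_x_at, so these pairs did not share a direction.

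The brightest Igha probe set behaved differently. At 1429381_x_at the values were 7.30, 7.19 and 6.69 in RAG-/- and 6.73, 5.57 and 5.97 in WT. The RAG-/- arrays were high and the groups met only at RAG-/- replicate 3 and WT replicate 1. The difference by description was 0.96 (SE 0.40; limma unadjusted p = 0.0405, adjusted p = 1, exact permutation p = 0.2) and by title 0.59 (SE 0.48; adjusted p = 1). In pairs 1, 2 and 3 it was 0.56, 1.62 and 0.72 by description, higher in the array described as RAG-/- in each. The suffix _x_at marks probe sets with probes that may bind unrelated transcripts, and it is carried by 5 of the 15 members.

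Jchain, the single probe set of the chain that joins polymeric antibodies, gave non-overlapping groups by title and not by description. At 1424305_at the values were 7.18, 6.32 and 6.34 in RAG-/- and 5.65, 6.50 and 6.93 in WT. The 3 arrays titled B10 held the highest values, 7.18, 6.93 and 6.50, and those titled RAG the lowest, 6.34, 6.32 and 5.65. By title the mean was 6.10 ± 0.40 in RAG-/- and 6.87 ± 0.34 in WT (SD, n = 3), a difference of -0.76 (SE 0.36; limma unadjusted p = 0.0657, adjusted p = 1, exact permutation p = 0.1, the smallest possible). By description the mean was 6.61 ± 0.49 in RAG-/- and 6.36 ± 0.65 in WT, a difference of 0.26 (SE 0.44; adjusted p = 1, exact permutation p = 0.6). Pairs 2 and 3 differed by -0.17 and -0.59, and pair 1 by 1.53 by description and -1.53 by title. By description, dropping RAG-/- replicate 1 gave -0.02 and dropping WT replicate 1 gave -0.10, and by title the difference lay between -0.95 and -0.53 without any single array.

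**Figure D2:**
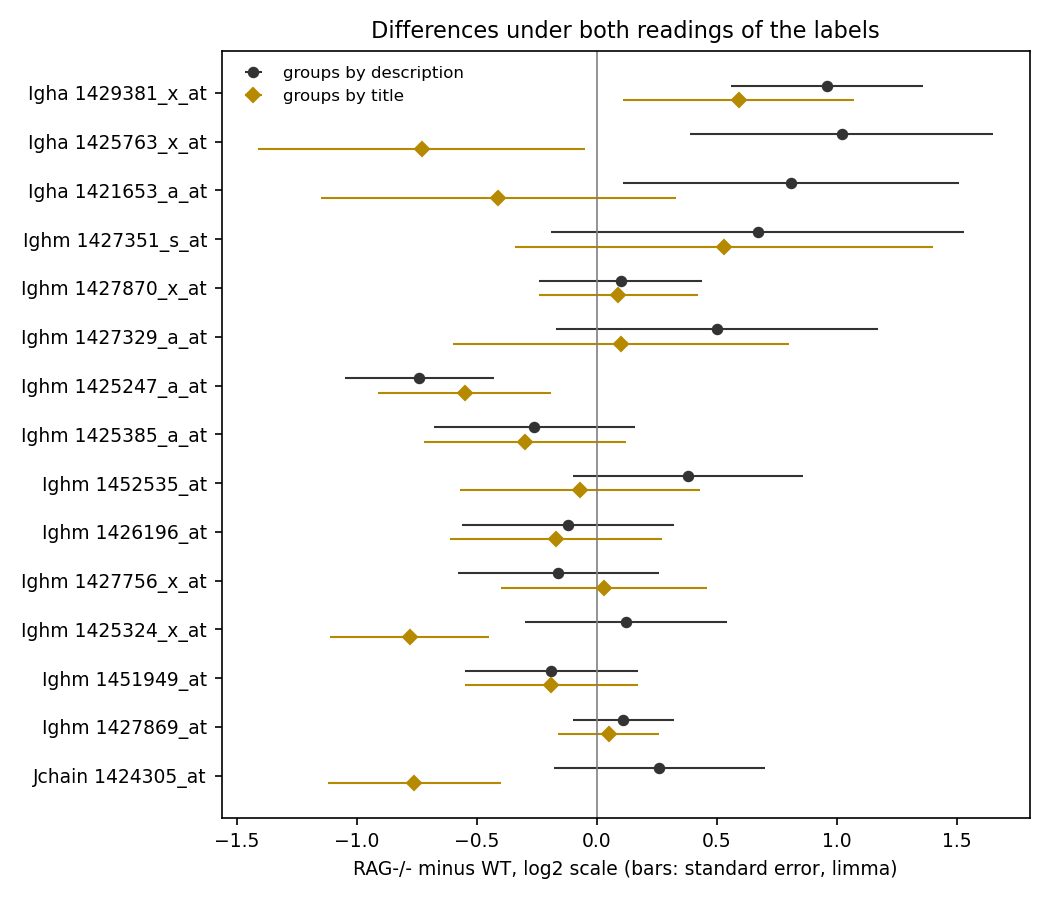
Difference RAG-/- minus WT on the log2 scale (horizontal axis) for the 15 probe sets (vertical axis), with groups by description and by title and limma standard errors as bars. Jchain, 2 Igha and 3 Ighm probe sets (1425324_x_at, 1452535_at and 1427756_x_at) lie on opposite sides of 0 under the readings, and no difference passed the threshold.

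Ighm encodes the constant region of the first antibody class a B cell makes. Its brightest probe set was highest in an array that both labels call RAG, RAG-/- replicate 2. That array was highest at 2 of the 11 Ighm probe sets. At 1427351_s_at, the brightest member at the 76.7 percentile, the values were 8.45, 11.27 and 8.28 in RAG-/- and 8.24, 7.83 and 9.94 in WT. RAG-/- replicate 2 was highest and WT replicate 3 next, and the groups overlapped. The deposited intensities of these arrays were 2421 and 918, against 218 to 331 in the remaining 4. The difference was 0.67 (SE 0.86) by description and 0.53 (SE 0.87) by title (limma adjusted p = 1 for both, exact permutation p = 0.5 and 0.7). Without RAG-/- replicate 2 it was -0.30 and -0.48. In pairs 2 and 3 RAG-/- minus WT was 3.45 and -1.65, opposite directions in the pairs on which the labels do not disagree.

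A second probe set showed the same array highest. At 1427329_a_at the values were 8.28, 9.57 and 6.72 in RAG-/- and 7.67, 7.12 and 8.25 in WT, with RAG-/- replicate 2 above the rest and RAG-/- replicate 3 lowest. The difference was 0.50 (SE 0.67) by description and 0.10 (SE 0.70) by title, with limma adjusted p = 1 for both. It was -0.19 and -0.69 without RAG-/- replicate 2, and by title -0.28 without WT replicate 2. The third Ighm probe set above the median of all probe sets, 1427870_x_at, was nearly level, between 8.06 and 8.85 over the 6 arrays, and differed by 0.10 and 0.09.

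The array highest at Ighm 1427351_s_at was also the highest for most of a list of neuron genes. Of 13 measured neuron genes, a list chosen after the Ighm values were seen, 12 were highest in RAG-/- replicate 2 (24.1% of all genes were), and the mean of the list was 11.68 there and between 8.87 and 10.35 in the other arrays. Snap25, a synaptic vesicle fusion protein, was at 14.05 in it and between 11.38 and 13.94 in the others. By description the list means ran from 9.42 to 10.35 in WT and from 8.87 to 11.68 in RAG-/-. WT replicate 2 had the next highest list mean, 10.35, but was the lowest array at Ighm 1427351_s_at, at 7.83. WT replicate 3, second for Ighm 1427351_s_at, was at 9.42 on that list. Apart from RAG-/- replicate 2, the mean of the list and this probe set therefore ordered the arrays differently. Single members of the list did not all follow its mean. Slc17a6 was highest in RAG-/- replicate 2 and next in WT replicate 3, like this probe set, but lowest in RAG-/- replicate 1. Snap25 was next highest in WT replicate 2, like the mean. The part of other cell types in the Ighm signal was not tested.

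The genes whose values ran closest to Ighm 1427351_s_at over the 6 arrays were Rell2, Glra3, Tox2, St8sia6, Palm2 and Klhl1. Likeness was the root mean square difference between values centred on their own means, which was 0.33 for Rell2 and 0.42 for Klhl1. Glra3, a glycine receptor subunit, was at 8.80 in RAG-/- replicate 2 and between 5.97 and 7.02 in the other arrays. Klhl1 was at 9.28 in that array and between 5.40 and 7.71 elsewhere. For Igha 1429381_x_at the closest genes were Kcng2 (0.11), Insm1 (0.14), Ttc39c, Snrpb2, Mapk8ip1 and Zfp651 (0.22), and for Jchain they were Txndc11 (0.12), Niban3 (0.13), Syt7, Srpk3, Cd96 and Rab31 (0.18). Kcng2 encodes a potassium channel subunit and Insm1 a transcription factor of neuroendocrine cells. Cd96, a receptor of T and NK cells, lay further from Jchain (0.17) than Txndc11, Niban3, Syt7 and Srpk3. All of these genes were picked as the closest of many over only 6 arrays, and a shared source was not tested.

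**Figure D3:**
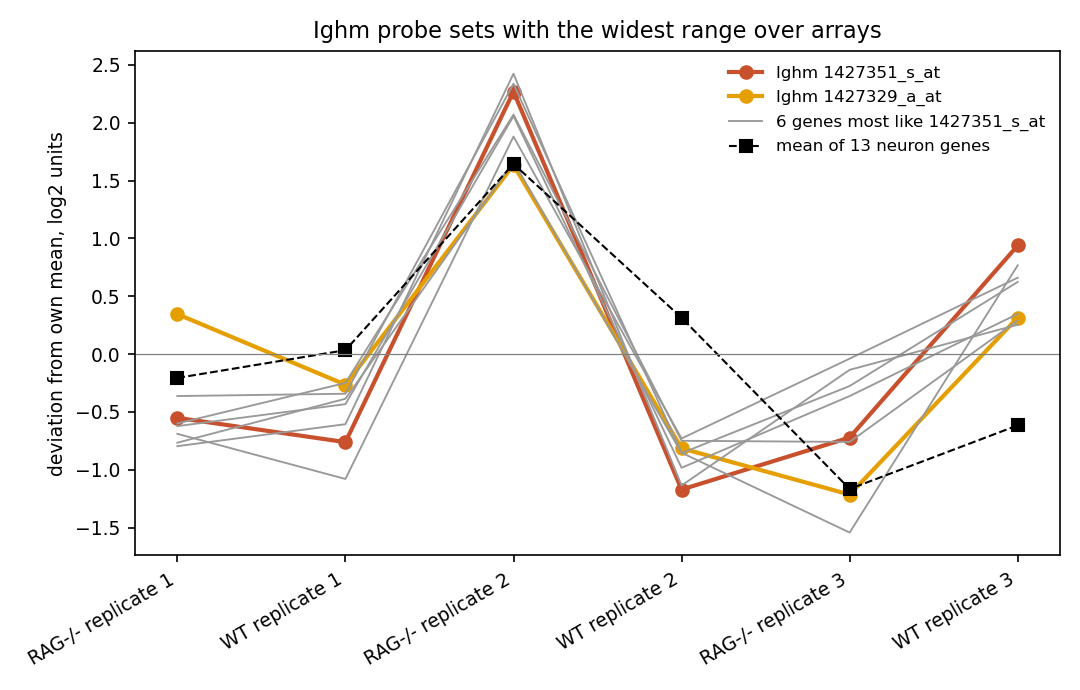
Deviation from the own mean over 6 arrays, in log2 units (vertical axis), by array (horizontal axis), for Ighm 1427351_s_at and 1427329_a_at, the 6 genes most like the first of these, and the mean of 13 neuron genes. All of these lines peak at RAG-/- replicate 2. The 6 genes were picked for their likeness to 1427351_s_at, so their peak there follows from that choice. The neuron list was chosen after the Ighm values were seen.

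A dimmer Ighm probe set was the sole member with non-overlapping groups by description. At 1425247_a_at the values were 6.53, 6.10 and 5.99 in RAG-/- and 6.83, 6.98 and 7.05 in WT, so every RAG-/- array lay below every WT array. The means were 6.21 ± 0.29 and 6.95 ± 0.11 (SD, n = 3), a difference of -0.74 (SE 0.31; limma unadjusted p = 0.0456, adjusted p = 1, exact permutation p = 0.1, the smallest possible). By title the groups overlapped at WT replicate 1 and RAG-/- replicate 1, with a difference of -0.55 (SE 0.36; adjusted p = 1, exact permutation p = 0.2). RAG-/- minus WT was -0.87 and -1.06 in pairs 2 and 3, and in pair 1 it was -0.29 by description and 0.29 by title. The difference of the group means stayed below 0 without any single array, from -0.90 to -0.64 by description and from -0.79 to -0.39 by title.

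By title the non-overlapping members were Jchain and Ighm 1425324_x_at, both lower in RAG-/-. The latter was dim, at the 16.5 percentile, with 5.80, 4.56 and 5.00 in RAG-/- and 4.44, 5.03 and 5.51 in WT. Its lowest array titled B10 (5.03) lay just above its highest titled RAG (5.00). The difference by title was -0.78 (SE 0.33; limma unadjusted p = 0.0438, adjusted p = 1, exact permutation p = 0.1) and by description 0.12 (SE 0.42; adjusted p = 1). Counted over the members, 1 of 15 was lower without overlap by description, where 2.48% of all 45037 probe sets were, and 2 of 15 by title, where 3.49% were. No member was higher without overlap under either reading, where 2.98% and 3.04% of all probe sets were.

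The remaining 6 Ighm probe sets gave small differences. They lay between -0.26 (1425385_a_at) and 0.38 (1452535_at) by description, and between -0.30 and 0.05 by title, each smaller than its standard error. For 1427869_at, at the 1.3 percentile, all values fell between 4.20 and 4.53, close to the floor that the added 16 sets on this scale.

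Probe sets of the same gene did not rank the arrays alike. Of 55 pairs of Ighm probe sets, 11 had the same highest array and 12 the same lowest. The root mean square difference between their centred values ran from 0.25 to 1.42 log2 units with a median of 0.63, and the smallest was between 1426196_at and 1451949_at, both below the filter. The 3 Igha probe sets all had RAG-/- replicate 1 highest after normalization, and 1421653_a_at and 1425763_x_at differed by 0.40, against 0.71 and 0.74 from 1429381_x_at. In deposited intensity the last of these was highest in RAG-/- replicate 2, at 142, with 132 in RAG-/- replicate 1. Over all 15 members RAG-/- replicate 1 was highest at 7, WT replicate 3 at 4, RAG-/- replicates 2 and 3 at 2 each, and WT replicates 1 and 2 at 0.

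**Figure D4:**
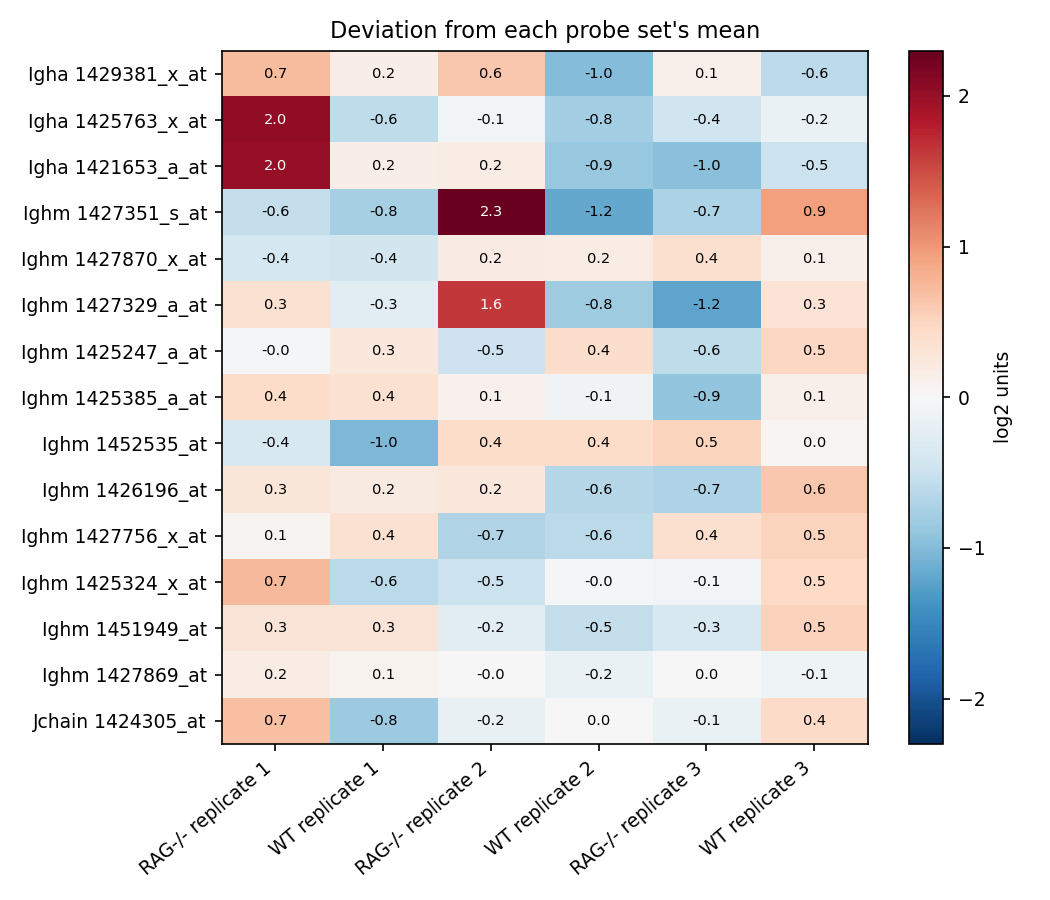
Deviation of each array (columns, in pairs) from the mean of each of the 15 probe sets (rows), in log2 units. The largest deviations are single arrays: 2 Igha probe sets in RAG-/- replicate 1 and 2 Ighm probe sets in RAG-/- replicate 2, while most other Ighm probe sets show no such peak.

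Several defining markers of B cells were dim on average. Cd79a and Cd79b, which signal with the B cell antigen receptor, lay at the 33.8 and 26.1 percentile, and Ms4a1, the B cell surface protein CD20, at the 33.1, all below the filter, though each exceeded its limit of 6.06 in RAG-/- replicate 1. Pax5, a B cell transcription factor, and Cd22, a B cell surface lectin, passed it with means of 6.40 and 6.29, and differed by 0.12 and 0.38 by description and -0.33 and 0.32 by title. Cd79a was at 6.22, 5.61 and 6.13 in RAG-/- and 5.48, 5.25 and 5.92 in WT, and differed by 0.44 by description and -0.05 by title. Cd79b was at 6.34, 4.85 and 4.49 in RAG-/- and 5.74, 5.37 and 5.85 in WT, and differed by -0.43 and -0.83. Both were highest in RAG-/- replicate 1, and the groups overlapped under both readings.

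Ms4a1 parted by title at both of its probe sets. At 1423226_at the values were 6.90, 5.68 and 4.29 in RAG-/- and 5.10, 6.17 and 6.30 in WT. Each array titled B10 lay above each titled RAG, with means of 6.46 ± 0.39 and 5.02 ± 0.70 (SD, n = 3), a difference of -1.43 (SE 0.45; limma adjusted p = 1, exact permutation p = 0.1). By description it was -0.23 (SE 0.66; adjusted p = 1). The other probe set, 1450912_at, lay lower still, at the 15.8 percentile, and differed by -0.56 by title without overlap and by -0.08 by description. Ms4a1 was described for its place in the marker list and did not pass the threshold.

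**Figure D5:**
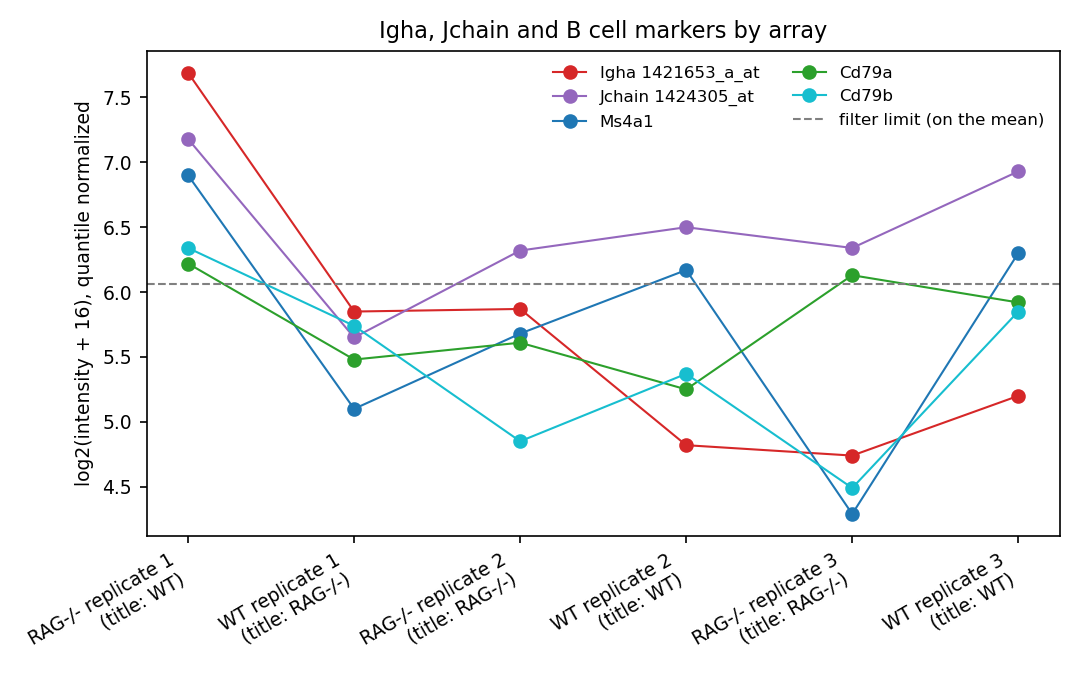
Log2(intensity + 16) after quantile normalization (vertical axis) of Igha 1421653_a_at, Jchain and the B cell markers Ms4a1, Cd79a and Cd79b by array (horizontal axis, with the genotype in the title in brackets). All of these genes are highest in RAG-/- replicate 1, the array titled wild type, and most of the other values lie near or below the filter limit of 6.06.

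RAG-/- replicate 1, where Igha and Jchain were highest, was also the highest array for many B cell genes, mostly dim ones. Of 23 measured B cell genes, 11 were highest in it (47.8%), where 16.4% of all 18193 genes were. Among the 11 past the filter it was 4 (36.4%, against 16.2% of all), so 7 of the 11 lay below it. WT replicate 1, its partner, was highest for 3 of 23. Genes of 1 array share its RNA and scaling, so this is a description of that library. The list mean was 6.44 in RAG-/- replicate 1 and between 5.76 and 6.24 in the others, but over the genes past the filter it was 6.70 there, below WT replicate 1 (6.77) and WT replicate 3 (6.95). T cell genes were highest in it for 4 of 14, and the T cell list mean ran from 5.97 to 6.14 in RAG-/- and from 5.86 to 6.01 in WT.

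As a list, the B cell genes gave no call. Of 24 listed, 23 were measured and 11 passed the filter, and 0 passed the threshold by description or by title. By description 13 of 23 were lower, with a median of -0.05, and by title 17 of 23, with a median of -0.22, where 9136 of all 18193 genes were lower by description and 9596 by title. Without overlap 2 of 23 were lower under each reading, where 1.93% of all genes were by description and 3.17% by title. By description these were Ebf1, which drives early B cell genes and is also active in mesenchyme, at -1.03, and the chemokine receptor Cxcr5 at -0.39, and by title Ms4a1 and Tnfrsf13c, a receptor for the survival factor BAFF, at -0.92. The brightest members were Ebf1, Fcmr (a receptor for IgM), Bank1 and Ly6d. Fcmr, Bank1 and Ly6d differed by -0.33, 0.17 and 0.12 by description, and by 0.11, 0.17 and -0.30 by title.

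Genes of plasma cells and antibody secretion were mostly bright, but those genes serve protein secretion in other cells too. Of 16 measured, 12 passed the filter and 0 the threshold. By description 11 of 16 were lower with a median of -0.14, and by title 12 of 16 with a median of -0.34. Of all 18193 genes, 9136 were lower by description and 9596 by title. Without overlap 1 of 16 was lower by description (1.93% of all genes), Slamf7 at -0.96. By title 2 were lower (3.17% of all), Tnfrsf13b at -0.84 and Creld2 at -0.69, and 1 was higher, Ell2 at 1.05. Xbp1, a transcription factor of secretory cells, was the brightest at 13.34, followed by Creld2, Txndc5 and Edem1, and differed by -0.09 by description and -0.15 by title. The more plasma cell restricted Tnfrsf17, a receptor for survival factors, lay at the 31.4 percentile and differed by -0.70 and -0.46. Of the other plasma cell markers, the transcription factors Irf4 and Prdm1 differed by 0.67 and -0.02 by description, and by -0.60 and 0.00 by title. Mzb1, a chaperone that helps IgM assembly, was at 7.22, 6.40 and 7.85 in RAG-/- and 7.07, 7.15 and 7.96 in WT, and differed by -0.23 and -0.33, with overlapping groups. Sdc1, a surface proteoglycan of plasma cells and epithelia, differed by -0.53 and -0.20 at its brightest probe set, and at the other 3 by -0.06, 0.07 and 0.33 by description and -0.14, 0.08 and 0.37 by title.

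Genes that move or bind antibodies gave no call either. Pigr, the receptor that carries polymeric IgA and IgM across epithelia, was dim at both probe sets (28.7 and 15.7 percentile), with differences of -0.13 and 0.61 by description and -0.39 and 0.61 by title. Of the 10 measured genes of antibody transport and Fc receptors, 7 passed the filter and 0 the threshold, with medians over the 10 of 0.04 by description and -0.22 by title. Fcgrt, the neonatal Fc receptor, was the brightest at 10.75, ahead of Trim21, Fcgr3 and Fcer1g, and differed by -0.49 and -0.51. Among other immunoglobulin genes, 3 of 13 had a probe set with a single symbol (Ighg3, Iglv1 and Igkv1-117) and 0 passed the filter. Their percentiles lay between 4.12 and 28.8 and their differences by description were 0.72, -0.65 and 0.46.

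The other lists bear on the composition of the samples, and 0 of their members passed the threshold. Of the early B lineage and recombination genes 11 were measured, with medians of -0.04 by description and 0.19 by title, and the brightest were Vpreb1, Xrcc4, Lig4 and Prkdc. Among 14 T cell genes 3 passed the filter (Thy1, which neurons also express, Zap70 and Cd8a), while Cd3d and Cd3g lay at the 1.9 and 8.2 percentile. Without overlap 2 of 14 were lower by title (3.17% of all genes), Lat at -1.63 and Cd247 at -0.37. By description 1 was (1.93% of all), Cd4 at -0.64. Higher without overlap were Cd3d by title (0.20) and Cd28 by description (0.70). All of these lay below the filter. Macrophage and dendritic cell genes had medians of -0.37 and 0.03 over 11 genes and were highest in WT replicate 1 for 8 of 11 (11.4% of all genes were). Red blood cell genes had medians of -0.02 and -0.16 over 6. Choroid plexus epithelium genes were bright, with a list mean of 12.87 in RAG-/- replicate 2 and from 13.59 to 13.81 in the other arrays. Of the sex-linked genes, Xist was at 9.04 and 7.43 in RAG-/- replicates 1 and 3 and between 12.20 and 13.19 in the others, and Eif2s3y at 9.47 and 9.76 against 4.19 to 5.76. By description Xist was lower in RAG-/- without overlap, at -3.45, and by title its groups overlapped, at -0.89. Eif2s3y differed by 2.99 by description and -0.27 by title, with overlap in both. The sex-linked genes were therefore far less evenly spread over the genotypes by description than by title. Whether sex bears on Igha and Jchain was not tested.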

How the data were processed

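The authors deposited 1 linear intensity per probe set for each of 6 arrays. How they were made is not given in the sources used here. The deposited values themselves show a trimmed mean intensity of 500 on each array (2% trimmed at either end), and medians lay between 77.8 and 97.1, so arrays had been scaled singly. The number of arrays limits the precision.

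Without the 64 control probe sets, log2(intensity + 16) was quantile normalized and fitted with limma 3.58.1 in R 4.3.3 (eBayes with trend, Benjamini-Hochberg over all probe sets tested), after leaving out the lowest 40% by mean. Of 45037 probe sets, 34945 had 1 symbol, 932 several and 9160 were unnamed here; 34741 matched the gene table of GRCm38.p6 by gene number. The brightest probe set stood for a gene in lists. Exact permutation tests were two-sided (scipy 1.17.1).

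Each of the 3 pairs shares a code in the titles. Its members deviated together from their group means (correlations of 0.29, 0.39 and 0.58), so the pair also entered as a block in an alternative fit. The code of the fit was tried on simulated data with a larger shift than any member showed and without pairs. That trial does not show whether differences of the size seen here could be detected. Members, gene lists and the naming rule (all members, the 6 genes most like Ighm, Igha and Jchain, the 4 brightest of each list and fixed markers) were chosen with earlier results of these data known. Genes named for non-overlapping groups were chosen after their values were seen.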

Additional observations from a re-analysis of the deposited data

How the results depend on the processing

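No member passed the threshold under any alternative run (lowest limma adjusted p = 0.614): the pair as a block, values as deposited, a common median, a pseudocount of 1 or 64, no filter, array weights, pair 1 or any single array left out. With the replicate block, 0 probe sets of 27022 passed by description (0.0%) and 1 by title (0.0037%), so the pairing changed no call of a member; array weights by title gave 2. The count by description ran from 0 to 4 with 1 array left out, 4 being without RAG-/- replicate 2, and by title it was 0 throughout. With groups by title, with or without the block, Igha 1425763_x_at turned to -0.73, Igha 1421653_a_at to -0.41, Ighm 1452535_at to -0.07, Ighm 1427756_x_at to 0.03, Ighm 1425324_x_at to -0.78 and Jchain to -0.76. Without pair 1, Ighm 1425324_x_at was at -0.50 and Jchain at -0.37 against the description, and Igha 1425763_x_at at 0.22, Igha 1421653_a_at at 0.31, Ighm 1452535_at at 0.23 and Ighm 1427756_x_at at -0.10 against the title. Taken from another probe set, Ighm turned in 5 of 10 cases by description, to -0.74, -0.26, -0.12, -0.16 and -0.19, and in 6 of 10 by title, to -0.55, -0.30, -0.07, -0.17, -0.78 and -0.19; the rest, between 0.03 and 0.50, did not turn. Igha turned by title in both cases, to -0.73 and -0.41. Array weights by title turned Ighm 1427870_x_at to -0.09, 1427329_a_at to -0.12 and 1451949_at to 0.03. The cause was not tested.

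With 1 array left out, the ranges by description and by title were 0.71 to 1.27 and 0.24 to 1.10 for Igha 1429381_x_at, 0.26 to 1.51 and -1.30 to 0.11 for 1425763_x_at, 0.02 to 1.50 and -0.96 to 0.48 for 1421653_a_at, and -0.10 to 0.54 and -0.95 to -0.53 for Jchain. For Ighm they were -0.30 to 1.30 and -0.48 to 1.13 at 1427351_s_at, -0.09 to 0.33 and -0.09 to 0.32 at 1427870_x_at, -0.19 to 1.24 and -0.69 to 0.73 at 1427329_a_at, -0.54 to 0.14 and -0.56 to 0.08 at 1425385_a_at, -0.05 to 0.68 and -0.34 to 0.43 at 1452535_at, -0.47 to 0.20 and -0.53 to 0.14 at 1426196_at, -0.50 to 0.14 and -0.27 to 0.38 at 1427756_x_at, -0.22 to 0.40 and -0.98 to -0.61 at 1425324_x_at, -0.50 to 0.03 under both at 1451949_at, and 0.06 to 0.18 and -0.01 to 0.15 at 1427869_at. Signal close to background limits the 8 members below the filter.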
